A study of Mus musculus with 9 samples.

Results

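The nuclear-encoded subunits of the respiratory chain and of ATP synthase were measured as RNA in the whole hippocampus of C57BL6 mice aged 11 days. The members were the protein-coding genes whose names begin with Ndufa, Ndufb, Ndufc, Ndufs, Ndufv, Uqcr, Atp5, Sdha to Sdhd or Cox followed by 4 to 8, leaving out Ndufa4l2 and the Ndufaf assembly factors, with a mean of at least 10 normalized counts over 9 libraries. Of 57180 genes in the deposited table, 84 met this rule: 37 of complex I, 4 of complex II, 8 of complex III, 17 of complex IV and 18 of complex V. Ndufa4 was placed with complex IV, where its protein is known to sit. A further 5 genes had matching names and fell below the minimum: Cox7b2 with a mean of 5.05 normalized counts, Cox8b with 0.33, and Cox8c, Ndufb11b and a second Atp5po entry, each listed at 0.

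The cKO group held 4 animals with a knockout of Slc38a3 in endothelial cells (3 males, 1 female), and the WT group held 5 wild-type animals (1 male, 4 females). Slc38a3 encodes the glutamine transporter SNAT3. The labels give neither the driver of the knockout nor the litters, so the p-values reflect sample-to-sample spread, and some samples may share a litter. Sequencing depth was alike, at 32096409 to 34034530 recovered reads in the cKO libraries and 30803135 to 33134405 in the WT libraries.

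Complex I takes electrons from NADH and complex II takes them from succinate, and both pass them to ubiquinone. Complex III hands them on to cytochrome c and complex IV to oxygen. Complexes I, III and IV pump protons, and complex V (ATP synthase) uses the proton gradient to make ATP. Most subunits are encoded in the nucleus, a core set is encoded in mitochondrial DNA, and neurons depend heavily on this route for the energy of synaptic signalling.

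The targeted gene was lower in every cKO library than in every WT library, and regional genes of the hippocampus were detected in all 9. Slc38a3 averaged 351 ± 49.4 normalized counts over the 4 cKO libraries and 2821 ± 829.8 over the 5 WT libraries (mean ± SD, as for all such values here), a log2 fold change of -2.99 ± 0.221 (SE, limma adjusted p = 5.54e-05). Prox1, a gene of dentate granule cells, had 5918 to 7122 normalized counts in cKO libraries and 6640 to 7188 in WT libraries. Zbtb20, a hippocampal transcription factor gene, had 9180 to 13075 in cKO and 10923 to 13430 in WT.

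Promoter windows are shown for 4 members because the isoforms of complex IV differ widely in level and because Ndufa10 is among the members whose genotypes did not overlap. The 250 bases before the annotated start were taken from RefSeq on GRCm38.p6, which held an entry for 68 of the 84 members. Capitals mark motifs: in Cox6a1 2 matches to the NRF1 motif (GCGCA, any base, GCGC) and 1 to the ETS core CCGGAAG, in Cox6b1 1 ETS core, and in Ndufa10 1 cAMP response element, TGACGTCA. The ETS cores appear as their reverse complement, CTTCCGG. All 4 genes lie on the minus strand, and each run reads 5′ to 3′ towards the start.
Cox6a1, chr5:115348959-115349208: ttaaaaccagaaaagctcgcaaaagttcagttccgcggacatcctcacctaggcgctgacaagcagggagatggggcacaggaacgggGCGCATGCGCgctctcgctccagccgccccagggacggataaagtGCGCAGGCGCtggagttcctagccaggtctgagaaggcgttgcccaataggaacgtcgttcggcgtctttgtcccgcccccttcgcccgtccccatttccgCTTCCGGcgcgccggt
Cox6b1, chr7:30626115-30626364: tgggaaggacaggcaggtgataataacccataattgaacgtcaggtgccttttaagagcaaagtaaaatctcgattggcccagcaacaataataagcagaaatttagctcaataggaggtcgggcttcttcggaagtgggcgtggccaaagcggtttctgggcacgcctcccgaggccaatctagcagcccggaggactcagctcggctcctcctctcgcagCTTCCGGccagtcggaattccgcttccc
Cox6b2, chr7:4753095-4753344: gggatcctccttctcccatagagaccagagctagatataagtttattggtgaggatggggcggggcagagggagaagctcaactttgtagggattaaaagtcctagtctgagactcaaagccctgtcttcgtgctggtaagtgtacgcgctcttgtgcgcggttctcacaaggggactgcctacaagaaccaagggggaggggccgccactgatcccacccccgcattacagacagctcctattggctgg
Ndufa10, chr1:92473759-92474008: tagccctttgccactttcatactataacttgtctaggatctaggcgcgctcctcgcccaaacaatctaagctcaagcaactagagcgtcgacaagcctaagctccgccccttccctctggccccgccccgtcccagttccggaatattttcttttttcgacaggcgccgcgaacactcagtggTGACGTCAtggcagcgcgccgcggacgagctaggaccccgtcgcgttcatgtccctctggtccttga

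NRF1 and the ETS factor GABP are known as activators of respiratory chain genes. Over the 68 members with a window, the NRF1 motif occurred on either strand in 14 (20.6%), beside 4.23% of 27025 genes with a window. These 27025 genes were not limited to those detected in this tissue, as the members were. The motif was found in 6 of 33 complex I members, 2 of 3 of complex II, 0 of 5 of complex III, 1 of 12 of complex IV and 5 of 15 of complex V. The ETS core occurred in 12 of 68 members (17.6%) and 7.83% of the 27025 genes. At least 1 of these motifs occurred in 23 members (33.8%) and 11.3% of the genes. The cAMP response element occurred in 4 members (5.88%) and 1.77% of the genes. The YY1 motif AAGATGGC occurred in 1 member (1.47%) and 1.83% of the genes. A match describes the letters only.

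The first comparison asked whether the subunit transcripts differed between cKO and WT hippocampus. No member passed the test: 0 of 84 had a limma adjusted p under 0.05, beside 0.346% of the 17036 genes tested. On the recovered reads, edgeR also called 0 members, beside 0.335% of all genes, and DESeq2 0, beside 1.17%. An unadjusted p under 0.05 was found for 3 members (3.57%), beside 11.3% of all genes tested. The log2 fold change was above 0 in 42 of 84 members, beside 48.8% of all genes. Its median over the members was 0.0022, with quartiles of -0.040 and 0.034, beside a median of -0.0034 over all genes tested. Since the RNA came from whole tissue, fewer cells of a type and less RNA per cell cannot be told apart.

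The data bounded most members closely. In 75 of 84 members the 95% interval of the fold change lay within 1.2-fold in either direction, beside 8294 of all 17036 genes tested. All 75 were among the 79 members with a mean of at least 100 normalized counts. None of the 5 members under 100 (Cox4i2, Cox5b-ps, Cox6a2, Cox6b2 and Cox7a1) had so narrow an interval. The median log2 fold change was -0.0028 in complex I, -0.0098 in complex II, 0.0017 in complex III, 0.018 in complex IV and -0.0040 in complex V.

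**Figure D1:**
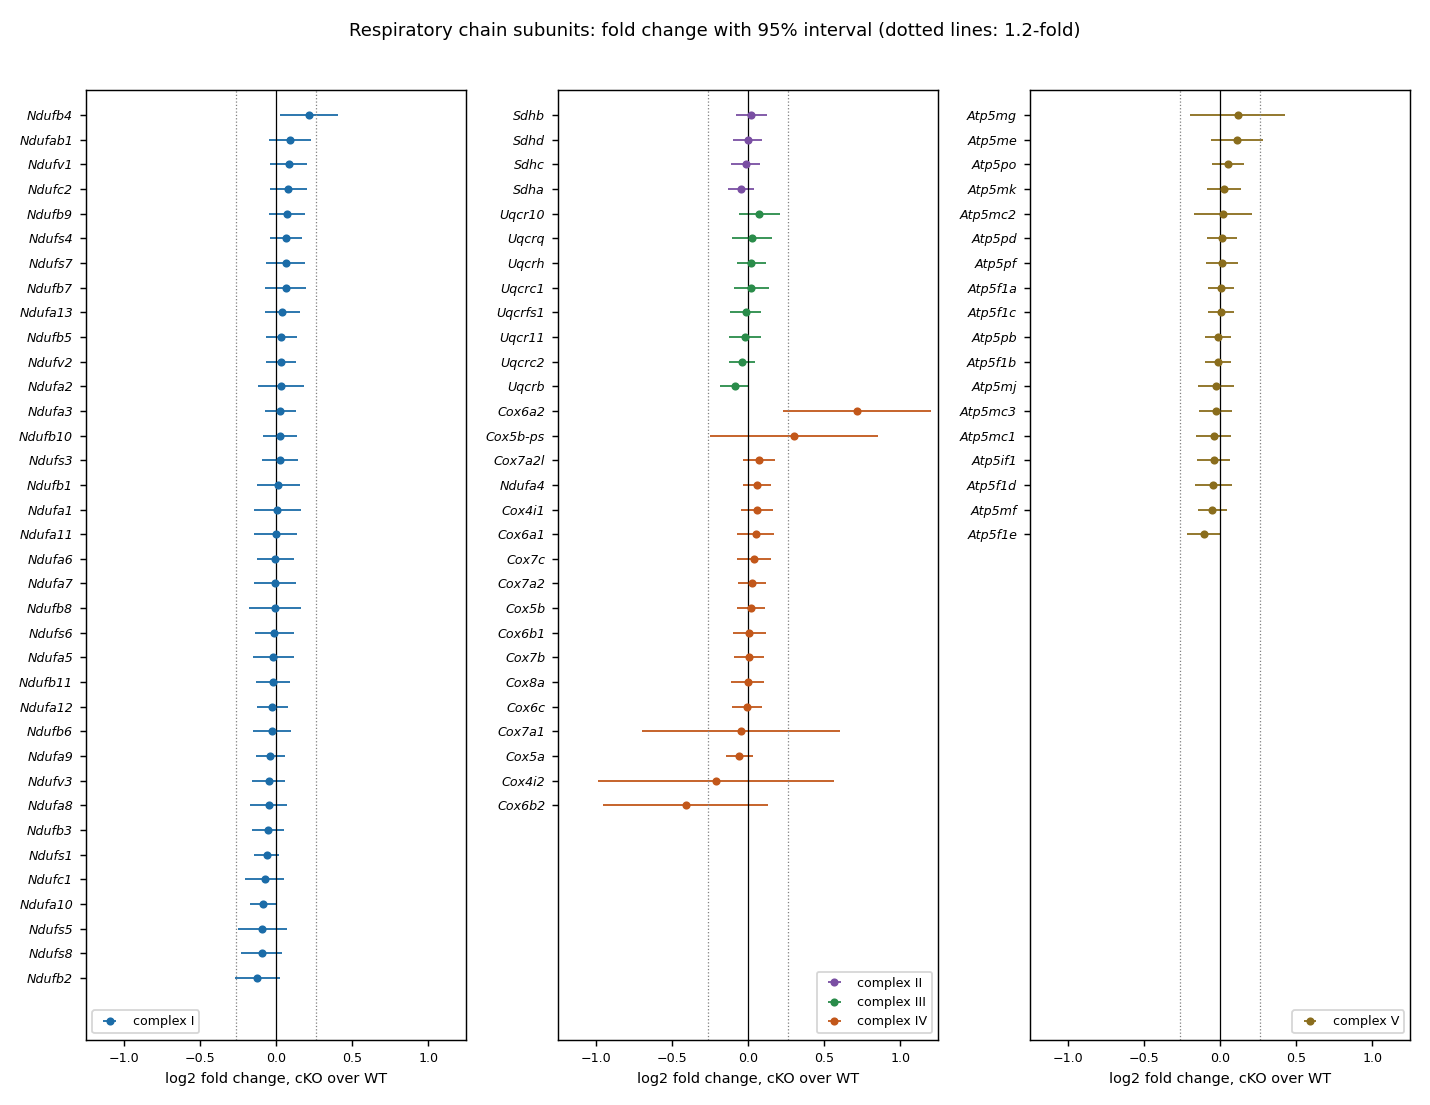
Log2 fold change of the members reported singly, cKO over WT, from the limma fit with sex as a term (points), with 95% intervals (lines); colours give the complex and the dotted lines mark 1.2-fold. Most intervals lie between the dotted lines and cross 0, and Cox6a2, at 0.71, has the largest estimate.

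The libraries of cKO and WT did not overlap in 4 members, beside 6.29% of all genes tested. Cox6a2 was above WT in every cKO library (1 of 84 members, beside 2.58% of all genes tested). Ndufa10, Ndufs1 and Uqcrb were below WT in every cKO library (3 of 84, beside 3.72%). The mean log2 level of the 13 neuron markers together did not overlap either. It was 14.18 to 14.22 in cKO libraries and 14.26 to 14.29 in WT libraries. Overlap was not counted for the single markers, of which 2 had a log2 fold change above 0. At an unadjusted limma p under 0.05, 6 of the 13 were lower in cKO and 1 higher, beside 11.3% of all genes tested in either direction. Their part in the lower members was not tested.

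In complex I, the core subunits Ndufv1 and Ndufs1 had intervals within 1.2-fold. Ndufv1, which holds the NADH-binding site, averaged 3607 ± 267 normalized counts in cKO and 3478 ± 135 in WT (n = 4 and 5). These group means differed by less than the SD within cKO.

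Ndufs1 (ENSMUSG00000025968, chromosome 1, 63182754 to 63215992 in GRCm39), the largest iron-sulfur subunit of complex I, had 4543, 4818, 4717 and 4735 normalized counts in cKO replicates 1 to 4, against 4882, 5119, 4939, 5052 and 4952 in WT replicates 1 to 5. The highest cKO library lay just under the lowest WT library. This amounts to -0.06 ± 0.037 on the log2 scale (SE), with a limma adjusted p of 0.558. Its locus overlaps Eef1b2, which has a mean of 4521 normalized counts, and whether the counting used strand is not stated.

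Ndufa10 (ENSMUSG00000026260, chromosome 1, 92366731 to 92401582 in GRCm39), an accessory subunit of the membrane arm, had 3868, 4259, 3974 and 3975 normalized counts in cKO, against 4335, 4430, 4471, 4305 and 4326 in WT. The female cKO library was the closest to the WT range. The difference was -0.09 ± 0.040 on the log2 scale (SE), with a limma adjusted p of 0.425. Its promoter window, shown above, held a cAMP response element. That element occurred in 4 of the 68 members with a window (5.88%), beside 1.77% of 27025 genes, and its part in the Ndufa10 level was not tested.

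Ndufb4 (ENSMUSG00000022820, chromosome 16, 37467531 to 37474815 in GRCm39), another accessory subunit of the membrane arm, had 203, 272, 223.5 and 209 normalized counts in cKO, against 183, 224, 226, 236 and 243 in WT. The groups overlapped. In each genotype every female library was above every male library. The log2 fold change with sex as a term was 0.22 ± 0.089 (SE, limma adjusted p = 0.377), and without that term 0.025. Ndufb2, also of the membrane arm, had the lowest estimate of complex I, -0.12 ± 0.069 (SE, limma adjusted p = 0.524), and averaged 643 ± 30.8 normalized counts in cKO and 699.5 ± 39.1 in WT. Its locus overlaps Braf, with a mean of 4300.1. Ndufab1, the mitochondrial acyl carrier protein, averaged 793 ± 47.7 in cKO and 788 ± 56.9 in WT.

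In complex II, which also serves the TCA cycle, all 4 intervals lay within 1.2-fold. Sdha, the flavoprotein that oxidizes succinate, had 8525, 9111, 8963 and 9165 normalized counts in cKO, against 9126, 9657, 9603, 9250 and 9360 in WT. The highest cKO library exceeded the lowest WT library. On the log2 scale it differed by -0.05 ± 0.039 (SE), with a limma adjusted p of 0.682. Sdhb, the iron-sulfur subunit, averaged 3073 ± 181 in cKO and 3131 ± 103 in WT.

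In complex III, the Rieske iron-sulfur protein gene Uqcrfs1 averaged 3412 ± 223 normalized counts in cKO and 3528 ± 48.0 in WT. Uqcrc2, a core protein, averaged 6001 ± 192 in cKO and 6249 ± 121 in WT. The 95% interval of each fold change included 0 on the log2 scale.

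Uqcrb (ENSMUSG00000021520, chromosome 13, 67048680 to 67053442 in GRCm39), the ubiquinone-binding subunit, had 1638, 1787, 1709.6 and 1771 normalized counts in cKO, against 1842, 1849, 1910.0, 1895 and 1847 in WT. The groups did not overlap. On the log2 scale the difference was -0.09 ± 0.045 (SE), with a limma adjusted p of 0.473, and leaving out any 1 library kept it between -0.11 and -0.07. Uqcr10, a small subunit, had the highest estimate of this complex, 0.07 ± 0.062 (SE, limma adjusted p = 0.684).

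Complex IV held the member with the largest estimate. Several of its subunits exist as a pair of isoforms, of which 1 is known to predominate in most tissues and the other in heart and skeletal muscle (Cox6a2, Cox7a1), lung (Cox4i2) or testis (Cox6b2). Cox6a2 (ENSMUSG00000030785, chromosome 7, 127804606 to 127805559 in GRCm39) had 68.6, 56.8, 83.2 and 60.4 normalized counts in cKO, against 33.9, 53.0, 34.2, 35.1 and 49.5 in WT. Every cKO library was above every WT library, and the female cKO library exceeded WT replicate 2 by the smallest margin. The fold change was 1.64, with a 95% interval of 1.17 to 2.30 (log2 fold change 0.71 ± 0.227, SE; limma adjusted p = 0.256). It did not pass the adjusted threshold, either with edgeR (adjusted p = 0.285) or with DESeq2 (adjusted p = 0.234) on the recovered reads.

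The size of the Cox6a2 difference rested on which animals were compared. It was 1.03 on the log2 scale without cKO replicate 2, which leaves 3 cKO males against 1 WT male, and 0.42 without WT replicate 1, which leaves 1 cKO female against 4 WT females. The gene overlaps Itgad, an integrin gene with a mean of 21.1 normalized counts, and counts this low carry a large counting error.

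On the scale of normalized counts per kilobase of exon, the isoforms were far apart. The exon length is the union over all annotated transcripts of a gene, so levels of different genes compare only roughly. Cox6a2 stood at 1.252 ± 0.231% of Cox6a1 in cKO and 0.769 ± 0.167% in WT (n = 4 and 5). Cox4i2 was at 0.560 ± 0.231% of Cox4i1 in cKO and 0.629 ± 0.118% in WT. Of these, the share of Cox6a2 was higher in every cKO library than in every WT library, by the same counts as above, and that of Cox4i2 overlapped.

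Cox6b2 was at 0.502 ± 0.178% of Cox6b1 in cKO and 0.589 ± 0.0807% in WT. Cox7a1 was at 1.44 ± 0.165% of Cox7a2 in cKO and 1.58 ± 0.449% in WT. Cox7a2l, a relative of Cox7a2 known as a supercomplex factor, was at 46.2 ± 2.27% of Cox7a2 in cKO and 44.3 ± 0.748% in WT. The muscle, lung and testis forms stood at no more than 2.04% of their partners in every library, and Cox7a2l at no less than 43.2%.

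The low isoforms other than Cox6a2 had wide intervals. Cox6b2 had 52.7, 27.4, 29.99 and 47.2 normalized counts in cKO, against 40.9, 48.8, 44.99, 58.2 and 47.3 in WT. Cox4i2 had 23.9, 30.4, 35.8 and 11.3 in cKO, against 34.9, 20.8, 31.3, 26.1 and 25.8 in WT. The groups overlapped for both, and the log2 fold changes of -0.41 (95% interval -0.95 to 0.13) and -0.21 (-0.98 to 0.56) leave differences of either sign. Cox7a1 (log2 fold change -0.05) and Cox5b-ps (0.30), which bears the name of a processed copy of Cox5b, had intervals as wide, and reads of Cox5b-ps and Cox5b could be split between them by the counting.

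**Figure D2:**
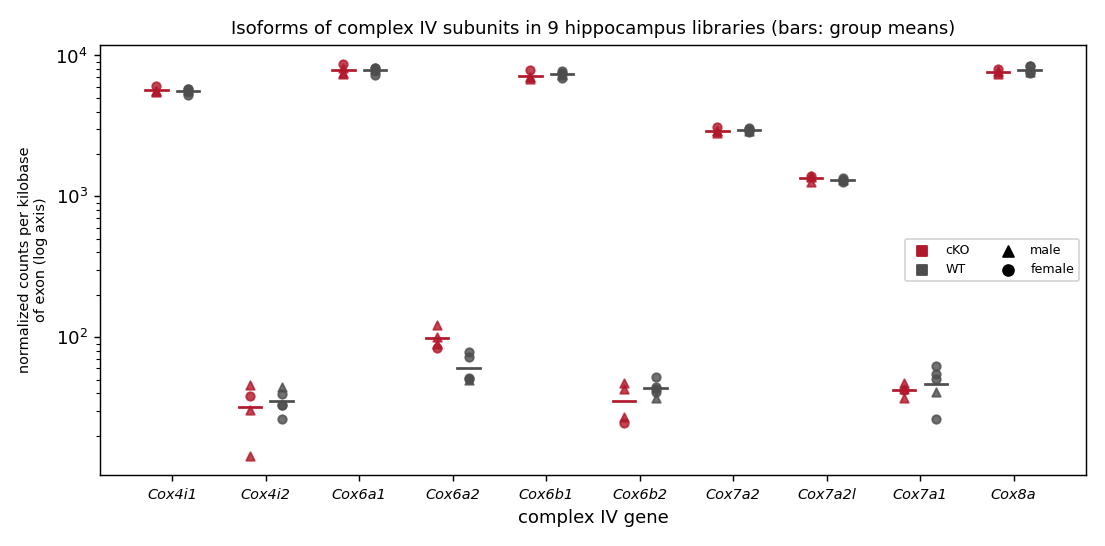
Normalized counts per kilobase of exon (log axis) of 10 complex IV genes in each cKO and WT library; triangles are males, circles females and bars group means. Cox4i2, Cox6a2, Cox6b2 and Cox7a1 lie far below Cox4i1, Cox6a1, Cox6b1 and Cox7a2, and Cox6a2 is the only gene plotted with no overlap between cKO and WT.

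The ubiquitous complex IV genes were abundant and similar between genotypes. Cox4i1, a subunit that binds regulatory nucleotides, had 8729, 9489, 8663 and 8577 normalized counts in cKO, against 8827, 8981, 9004, 8491 and 8128 in WT. The female cKO library was the highest of the 9. The fit gave it 0.06 ± 0.049 on the log2 scale (SE), with a limma adjusted p of 0.697. Cox5a, another nuclear subunit of the complex, averaged 4095 ± 217 in cKO and 4410.0 ± 110.1 in WT, with a log2 fold change of -0.06 ± 0.041 (SE, limma adjusted p = 0.62). Ndufa4 had a log2 fold change of 0.06 (limma adjusted p = 0.64).

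In complex V, the alpha and beta subunits, which together form the ring that makes ATP, were the most abundant members per kilobase. Atp5f1a (alpha) stood at 8668 and Atp5f1b (beta) at 8064 normalized counts per kilobase over all 9 libraries, followed by Cox6a1 at 7895 and Cox8a at 7805. Atp5f1a averaged 27050 ± 896 normalized counts in cKO and 27274 ± 581 in WT, a log2 fold change of 0.0064 with an interval of -0.08 to 0.09. Atp5f1b averaged 33672 ± 1044 in cKO and 34564 ± 566 in WT, a log2 fold change of -0.02 with an interval of -0.10 to 0.07. The group means of Atp5f1a differed by less than the SD within WT.

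Atp5f1e, the epsilon subunit of the central stalk, had the lowest unadjusted p of the complex, with 1548, 1558, 1543 and 1604 normalized counts in cKO, against 1675, 1795, 1720.2, 1643 and 1602 in WT. The cKO library with the highest value overlapped the lowest WT library. The fit gave it -0.11 ± 0.051 on the log2 scale (SE), with a limma adjusted p of 0.445. Atp5if1, the inhibitory factor that blocks ATP hydrolysis, averaged 3926 ± 181 in cKO and 4054 ± 171 in WT (limma adjusted p = 0.787).

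The c subunit of the rotor ring is encoded by 3 genes whose mature proteins are known to be identical. Per kilobase, Atp5mc1 was at 19.7 ± 0.332% of Atp5mc3 in cKO and 19.5 ± 0.308% in WT, and Atp5mc2 at 10.3 ± 0.524% in cKO and 9.76 ± 0.840% in WT. The union exon lengths behind these shares are 4912 bases for Atp5mc1, 1675 for Atp5mc2 and 2181 for Atp5mc3. Before division by length, the means over all 9 libraries were 2909, 507 and 6606 normalized counts in the same order. These shares overlapped between genotypes. Atp5mg, a subunit of the membrane part, was the lowest member per kilobase at 20.01, with an annotated exon length of 6443 bases, and its interval of -0.20 to 0.43 was the widest of complex V.

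Levels of many members moved together across libraries. For the 79 members with a mean of at least 100, the median deviation from each gene's own mean, on the log2 scale, was -0.06, 0.07, -0.02 and -0.07 in cKO replicates 1 to 4, against 0.018, 0.06, 0.04, -0.0055 and -0.03 in WT replicates 1 to 5. The only cKO female stood highest and the 3 cKO males were the lowest, together with WT replicate 5. The cKO female exceeded all 3 cKO males in 67 of 79 members and was the highest of 9 libraries in 37, and WT replicate 2, a female, was the highest in 26. All 3 cKO males were below the WT male in 47 of 79, which rests on a single WT library. These counts were not taken over all genes. Over the genes tested, cKO replicate 2 also differed more from the cKO males than they did from each other. The chi-square per gene between its recovered reads and those of each cKO male was 12.1 to 13.1. Between pairs of cKO males it was 7.86 to 8.41. Because the members moved together, they are not separate results. All 84 members together held 0.837 ± 0.0331% of the normalized counts in cKO and 0.838 ± 0.0240% in WT.

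**Figure D3:**
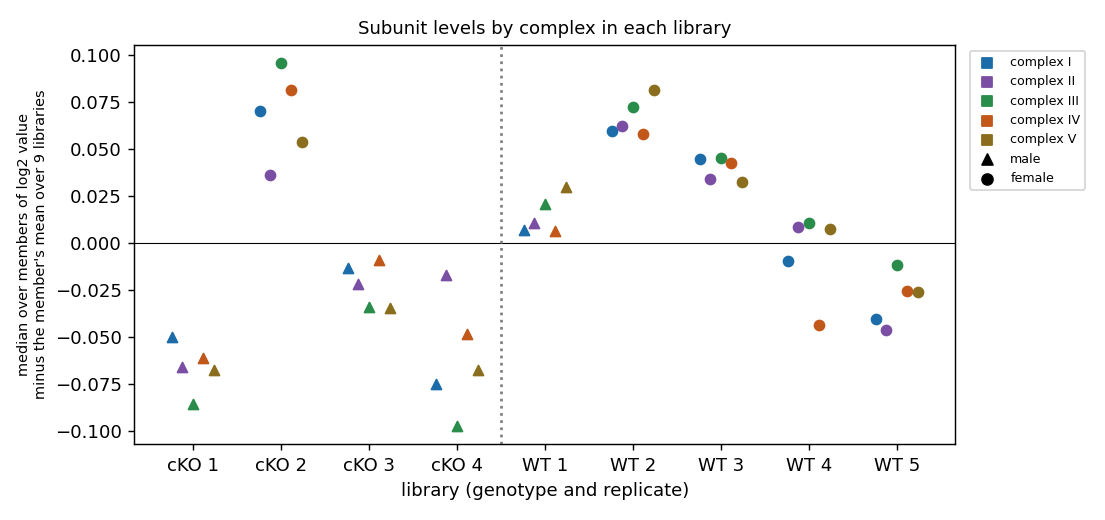
Median over the members of each complex of the log2 value minus the gene's mean over 9 libraries, by library; the 4 cKO libraries are left of the dotted line and the 5 WT libraries right, triangles are males and circles females, and colours give the complex. All 5 complexes are above 0 in cKO replicate 2 and below 0 in the 3 cKO males.

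The second comparison took the difference between the sexes from the same fit. It was above 0 (higher in females) in 75 of 84 members (89.3%), beside 49.8% of all genes tested, with a median log2 difference of 0.05. No member passed an adjusted p under 0.05, beside 0.0528% of all genes, and 9 members had an unadjusted p under 0.05 (10.7%, beside 6.73%), all higher in females. Ndufb4 had the smallest p, with a log2 difference of 0.35 ± 0.089 (SE, limma adjusted p = 0.494). The pattern depended on single libraries. Without cKO replicate 2, the sex difference compares 4 WT females with 1 WT male. Then 45 of 84 members were above 0, beside 49.4% of all genes, and the median was 0.0084. Over the fits with 1 library left out, the median ran from 0.0084 to 0.113. In the full fit the sex difference was also above 0 in 56 of 78 mitochondrial ribosomal protein genes and 16 of 22 mitochondrial import genes. The same held for 15 of 17 genes of pyruvate dehydrogenase and the TCA cycle and 66 of 82 cytosolic ribosomal protein genes. Among assembly factors it was above 0 in 8 of 17 for complex I and 11 of 23 for complex IV.

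Other lists also differed between these libraries. The 9 oligodendrocyte markers all had a sex difference above 0, with a median of 0.55 on the log2 scale. Their mean log2 level was 9.37, 10.13, 9.34 and 10.13 in cKO replicates 1 to 4, against 9.21, 10.04, 9.89, 10.04 and 10.02 in WT replicates 1 to 5. cKO replicate 2 was the highest of the 9 libraries both in these markers and in the subunits. cKO replicate 4 was about as high in these markers, and it was the lowest of the 9 in the subunits. The 82 cytosolic ribosomal protein genes had their highest mean log2 level in cKO replicate 2, at 11.50, with 11.36 to 11.41 in the other cKO libraries and 11.29 to 11.39 in WT. The part of either in the subunit levels was not tested.

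Within a sex, the members leaned in opposite directions. Between 3 cKO males and 1 WT male, 16 of 84 members were above 0 and the median log2 fold change was -0.06. Between 1 cKO female and 4 WT females, 64 of 84 were above 0 and the median was 0.06. Over all genes tested, 48.9% were above 0 in males and 50.1% in females. No member passed in males, beside 0.0587% of all genes, or in females, beside 0.123%, and each comparison has a single library on 1 side, whose spread is assumed to be that of the other libraries in the fit. The SD of the library medians within a genotype was 0.0501, pooled over both sexes. It includes the gap between cKO replicate 2 and the cKO males, so it cannot gauge the member medians of -0.06 and 0.06. Other lists leaned likewise. The medians in males and females were -0.034 and 0.060 for mitochondrial ribosomal protein genes and -0.045 and 0.056 for mitochondrial import genes. The signs were reversed for subunits encoded in mitochondrial DNA (0.096 and -0.087) and for regulators of mitochondrial biogenesis (0.022 and -0.040). An unadjusted p under 0.05 was found for 7 members in males (8.33%, beside 7.41% of all genes) and 5 in females (5.95%, beside 13.7%). The interaction of sex and genotype had a median of 0.11 over the members and was above 0 in 71 of 84, beside 50.8% of all genes tested. It called 0 members, beside 0.00587% of all genes, with 9 at an unadjusted p under 0.05 (10.7%, beside 7.9%), and it rests on 1 cKO female and 1 WT male.

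The direction of the median, which was near 0 in the full fit, thus turned on single libraries and also on the sex term. Without that term, 22 of 84 members were above 0, beside 49.4% of all genes tested, with a median log2 fold change of -0.03 and 9 members at an unadjusted p under 0.05 (10.7%, beside 15.6%), of which 8 were lower in cKO. None passed then either, beside 1.27% of all genes, and the smallest adjusted p was 0.0832, that of Cox6a2.

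**Figure D4:**
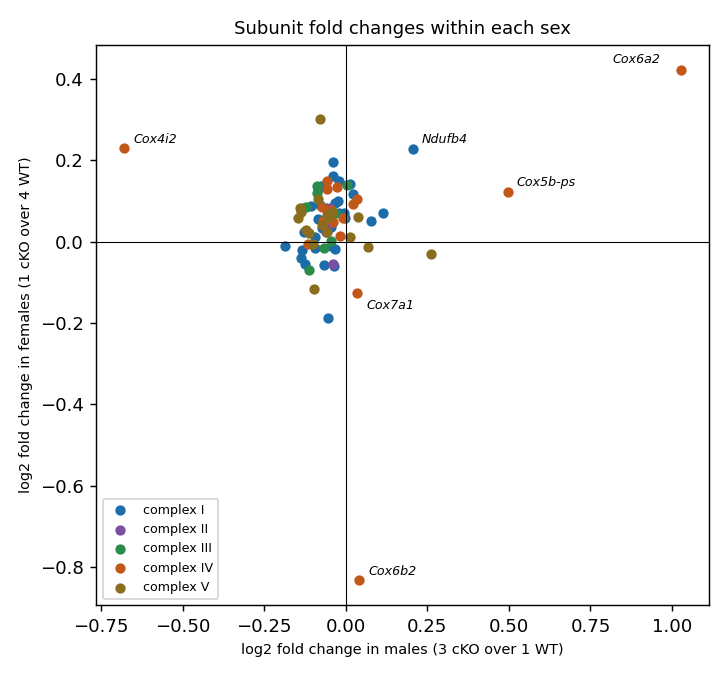
Log2 fold change of the members reported singly between 3 cKO males and 1 WT male (horizontal axis) and between 1 cKO female and 4 WT females (vertical axis), coloured by complex. Most members lie left of 0 and above 0, and Cox6a2 lies at 1.03 in males and 0.42 in females.

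Of the 13 subunits encoded in mitochondrial DNA, 7 were tested, and the other 6 (mt-Nd3, mt-Nd4l, mt-Co2, mt-Co3, mt-Atp6 and mt-Atp8) were listed at or near 0 in the deposited table. The 7 had a median log2 fold change of -0.00076, and limma called 0, with 0 at an unadjusted p under 0.05. Within a sex their median was 0.096 in males and -0.087 in females, with the signs opposite to those of the nuclear members. mt-Co1, the catalytic subunit of complex IV, averaged 246545 ± 9597 normalized counts in cKO and 258462 ± 26146 in WT. The WT libraries spread more widely, with WT replicates 4 and 5 at 287135 and 286030.

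The partners of the chain were read from lists of assembly factors, carriers and feeding enzymes, and limma called 0 of their genes. Over all genes tested, 48.8% had a log2 fold change above 0, 11.3% an unadjusted p under 0.05 and 0.346% were called. Of the complex I assembly factors 5 of 17 were above 0, with a median log2 fold change of -0.04. The medians were 0.012 for complex II (2 of 4 above 0), -0.05 for complex III (3 of 9), -0.015 for complex IV (9 of 23) and -0.04 for complex V assembly factors (1 of 4). Electron carriers outside the complexes had a median of 0.0069 (4 of 7 above 0), coenzyme Q synthesis 0.0046 (7 of 13), pyruvate dehydrogenase and the TCA cycle -0.016 (3 of 17), and regulators of mitochondrial biogenesis -0.0085 (5 of 16). Unadjusted p-values under 0.05 numbered 2, 0, 2, 2 and 0 among the assembly factors of complexes I to V, 3 among the carriers, 1 in coenzyme Q synthesis, 3 in the TCA list and 2 among the regulators.

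A few of these genes had small unadjusted p-values. Cycs, which encodes the cytochrome c that carries electrons from complex III to complex IV, had 1086, 1160.4, 1116 and 1128 normalized counts in cKO, against 1235, 1280, 1254, 1352 and 1237 in WT. The groups did not overlap, and the fit gave -0.15 ± 0.050 on the log2 scale (SE), with a limma adjusted p of 0.292. Gpd2, the glycerol-3-phosphate dehydrogenase that feeds ubiquinone, averaged 7353 ± 254 in cKO and 8127 ± 189 in WT (limma adjusted p = 0.186). Coq8a, of coenzyme Q synthesis, averaged 788 ± 79.8 in cKO and 672 ± 33.3 in WT (limma adjusted p = 0.175). Suclg2, a subunit of succinyl-CoA synthetase, averaged 514 ± 62.8 in cKO and 443 ± 50.7 in WT (limma adjusted p = 0.247). Citrate synthase (Cs) averaged 11522 ± 224 in cKO and 12355 ± 246 in WT (limma adjusted p = 0.322).

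Genes for making and importing mitochondrial proteins were also read. The 78 mitochondrial ribosomal protein genes had a median log2 fold change of 0.0081, with 42 above 0, and the 22 tested Tomm and Timm import genes had a median of -0.000041, with 11 above 0. limma called 0 in either list, with 3 in each at an unadjusted p under 0.05. Mrpl36, which overlaps Ndufs6, averaged 428 ± 9.86 normalized counts in cKO and 530.4 ± 36.5 in WT (limma adjusted p = 0.168). Timm17a, a subunit of the inner membrane translocase, averaged 2035 ± 54.4 in cKO and 2299 ± 72.0 in WT (limma adjusted p = 0.163). Without a sex term these 2 genes passed.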

How the data were processed

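RNA-seq of hippocampus from 4 cKO and 5 WT mice was used; groups and sex came from the labels, and replicate numbers are only names in accession order, pairing nothing. The GRCm39 build, STAR 2.7.10b, cutadapt 4.4, DESeq2 1.41.8 and FastQC 0.12.1 are named in the submitters' processing notes. No counter, annotation release or strand setting is given in the sources used here. The deposited signal values are counts per gene that the authors scaled by 1 factor for each library. Dividing by each library's step gave whole reads, within 0.1, for 100.0% of values, with 30803135 to 34034530 reads per library; in 3 libraries the step lies near 1. Low genes carry the larger counting error. No column was left out.

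limma-trend (limma 3.58.1, R 4.3.3) was fitted on log2(normalized count + 1) over 17036 genes with a mean of at least 10, modelling genotype and sex, with Benjamini-Hochberg adjustment and a threshold of 0.05. This scale understates changes of low genes. A further fit gave the interaction. edgeR 4.0.16 and DESeq2 1.42.0 ran on recovered reads; DESeq2 gave no adjusted p for 3 members. Other alternatives were pseudocounts (0.5, 5), filters, TMM and other scaling, robust limma, no sex term and libraries left out. Scripts were tested on simulated data with 200 changed genes. Levels per kilobase used union exon lengths of GENCODE M21. Member coordinates are those of the deposited table; promoters are RefSeq on GRCm38.p6. 54 members were matched to them by symbol and 14 by gene ID. Motif windows hold the 250 bases before the start on both strands, and no searched motif contains another. Of the list entries, 2 were not matched. Single-gene results that are withheld are left out of the text and figures, and counts over the members include them.

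Members and lists were chosen with earlier results of these data known. Values were given for members of smallest p, highest or lowest mean in each complex, isoform pairs and the catalytic core, and for up to 3 genes of smallest p in every other list. Python 3.11.15, pandas 2.3.3, numpy 2.4.6 and matplotlib 3.10.9 were used.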

Additional observations from a re-analysis of the deposited data

Results flagged for a closer look

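In 4 of 88 groups of libraries examined, cKO replicate 2, the only female of that genotype, stood apart from the other 3 cKO libraries by a gap large against the range of the group; chance gives this in about 1 of 20 groups. Cox4i1 had 9489 normalized counts there and 8577 to 8729 in the other 3. Cox6b1 had 5548 there and 4829 to 4946 in the other 3. All 84 members together held 0.886% of its normalized counts, and 0.816% to 0.828% in the other 3. The complex V members held 0.356% of its normalized counts, and 0.331% to 0.334% in the other 3. No library of the WT group stood apart by this measure. Only groups of cKO libraries can hold cKO replicate 2, and the 4 groups share members. The rate of 1 of 20 groups therefore does not gauge this library.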

How the results depend on the processing

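The number of members called was 0 under each of the 21 alternatives to the main setting, for genotype, and under those run for sex and the interaction. The median log2 fold change of all members, cKO against WT, ran from -0.0565 (without cKO replicate 2) to 0.0590 (without WT replicate 1) when 1 library was left out, on both sides of 0. The same ranges were -0.0596 to 0.0568 in complex I, -0.0493 to 0.0336 in complex II, -0.0767 to 0.0771 in complex III, -0.0281 to 0.0842 in complex IV and -0.0760 to 0.0490 in complex V. For the sex difference the range was 0.0084 to 0.113. Scaling by the sum of all genes other than the members and cytosolic ribosomal proteins shifted the median of all genes by 0.029 on the log2 scale and left 61 of 84 members above 0. For other genes of the pathway, the number called was 2 without a sex term (Mrpl36 and Timm17a), against 0 with it; the cause was not tested. Of 795 values of the 38 members named by rule, 740 kept their sign and stayed uncalled, and 55 changed sign and were uncalled too. No paired analysis was possible because the labels give the animals no shared replicate numbers. For the 5 members under 100 normalized counts, counting error and the spread between animals were not separated.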

Other observations

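The marker lists of other cell types were described by the same fit, in which limma called 0.346% of all genes tested, 11.3% had an unadjusted p under 0.05 and 48.8% a log2 fold change above 0. Of 13 neuron markers 2 were above 0, with a median log2 fold change of -0.08 and 0 called. Of 10 astrocyte markers 2 were called higher and 1 lower in cKO. Their median was 0.076, with 7 above 0, and at an unadjusted limma p under 0.05 4 were higher and 1 lower. Of 10 endothelial markers 1 was called lower. Their median was -0.055, with 4 above 0, and 3 had an unadjusted limma p under 0.05, all lower. No marker was called among the other lists: the median was 0.28 for 9 oligodendrocyte, -0.11 for 6 oligodendrocyte precursor, -0.09 for 9 microglia, 0.0016 for 8 mural, 0.44 for 10 meningeal fibroblast, 0.54 for 10 choroid plexus, -0.03 for 8 ependymal and -0.17 for 6 blood cell markers. At an unadjusted p under 0.05 these lists held 1, 2, 3, 5, 4, 0, 0 and 1 genes in the same order, and the neuron list 7, of which 6 were lower in cKO. The choroid plexus markers had a mean log2 level of 4.67 to 8.89 in cKO libraries and 4.54 to 9.24 in WT libraries. Of 82 cytosolic ribosomal protein genes 76 were above 0, with a median log2 fold change of 0.09 and 26 at an unadjusted p under 0.05, all higher in cKO; limma called 0. Their median was 0.016 in males and 0.17 in females.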
